A study of Mus musculus with 8 samples.

Results

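The genes described here encode sodium channels, calcium channels and transient receptor potential (TRP) channels, together with the sensors and subunits that work with them. They were taken by gene symbol from the deposited table: subunits of the epithelial sodium channel (ENaC) and of voltage-gated sodium and calcium channels, the TRPC, TRPM and TRPV families, the ORAI and STIM proteins, the inositol trisphosphate (IP3) and ryanodine receptors, the Piezo channels and the polycystins. Of 22274 genes in the table, 86 matched these names, and the 64 with 20 or more reads summed over the 8 libraries are the members. RNA was sequenced from RFB cells, a mouse kidney line that the labels call fibroblasts, and every library came from cells given TGF-β, the main profibrotic cytokine. The labels add ad-CRE to the treatment of 4 libraries and ad-GFP to that of the other 4, read here as adenoviruses carrying Cre recombinase, which cuts out DNA flanked by loxP sites, and green fluorescent protein. The title and design text point to Suv39h1, a histone H3 methyltransferase, as the gene to be lost, and call the derived cells a knockdown. Neither the allele for Cre, nor doses and times, nor the origin of the 4 replicates of a group is described, so the p-values reflect variation among libraries that may be technical only.

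ENaC carries sodium across the apical membrane of kidney collecting duct cells. Voltage-gated sodium and calcium channels consist of a large pore subunit, called alpha or alpha1, and smaller subunits that set its surface level and gating, and are best known from nerve and muscle. In cells that do not fire action potentials, calcium signals mostly come from IP3 receptors, which release calcium from the endoplasmic reticulum (ER), and from store-operated entry, in which the ER sensors STIM1 and STIM2 open ORAI channels of the plasma membrane once the store is empty. TRP, Piezo and polycystin channels respond to lipids, temperature, mechanical force or flow, and the polycystins PKD1 and PKD2 are the genes of dominant polycystic kidney disease.

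Total counts were 17572152 to 22297598 in the ad-CRE and 15998257 to 20920828 in the ad-GFP libraries, and the members took 0.191% to 0.196% of them in ad-CRE and 0.186% to 0.193% in ad-GFP. Suv39h1 was at 31.6 to 33.4 CPM in ad-CRE, against 37.2 to 44.1 CPM in ad-GFP (CPM, reads scaled to a common library size), a modest fall (log2 fold change −0.35, SE 0.0530, edgeR adjusted p = 8.65e-07). A larger fall was seen in Smarca4, which encodes the chromatin remodeller BRG1 and is named here with its values known (29.9 to 37.3 CPM in ad-CRE, against 276 to 299.6 CPM in ad-GFP; log2 fold change −3.07, edgeR adjusted p = 3.82e-31). Epithelial transcripts were abundant in this line given as fibroblasts: the summed level of 8 epithelial markers was 4074 to 4194 CPM in ad-CRE, against 1938 to 2152 CPM in ad-GFP, and that of 10 fibroblast markers 782 to 839 CPM in ad-CRE, against 1835 to 1929 CPM in ad-GFP, with Lum, a fibroblast proteoglycan gene, at 1 read in ad-CRE and 0 in ad-GFP. The epithelial markers did not all move one way: Epcam, Cdh1, Krt8, Krt18 and Pax8 rose, Cdh16 fell, and Krt19 and Pax2 did not pass. Of the 10 fibroblast markers 9 were tested, of which 1 rose and 8 fell. Of 6 proximal tubule markers 3 were tested, 1 rose and 2 fell, and their sum was 68.5 to 77.9 CPM in ad-CRE, against 97.3 to 105.2 CPM in ad-GFP. Endothelial, leukocyte and muscle marker sums were lower in every ad-CRE than in every ad-GFP library. Fewer cells of a type and less RNA per cell cannot be told apart in such bulk samples, and the part of these marker shifts in the results below was not tested.

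Of the 64 channel genes, 47 had enough reads to be tested and 17 did not. Among the 47 tested, 18 rose in ad-CRE, 16 fell and 13 did not pass (edgeR quasi-likelihood test over all 13702 genes with enough reads, at a Benjamini-Hochberg adjusted p under 0.05). That is 72.3% called, beside 73.1% of all genes tested, of which 36.8% rose and 36.3% fell, so the share of changed channel genes was near the background. The median log2 fold change was 0.13 over the tested channel genes and 0.00 over all genes tested, and the median size of change was 0.43 and 0.32. The groups did not overlap in 31 of the 47 (beside 66.2% of all genes tested), meaning that the lowest library of the higher group exceeded the highest library of the lower group. Only 39 of the 47 passed the filter on low counts in all libraries of both groups. Another 4 passed in all libraries of ad-CRE only, 3 in all of ad-GFP only and 1 in neither, so the tested genes are not a neutral sample of the 64.

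**Figure D1:**
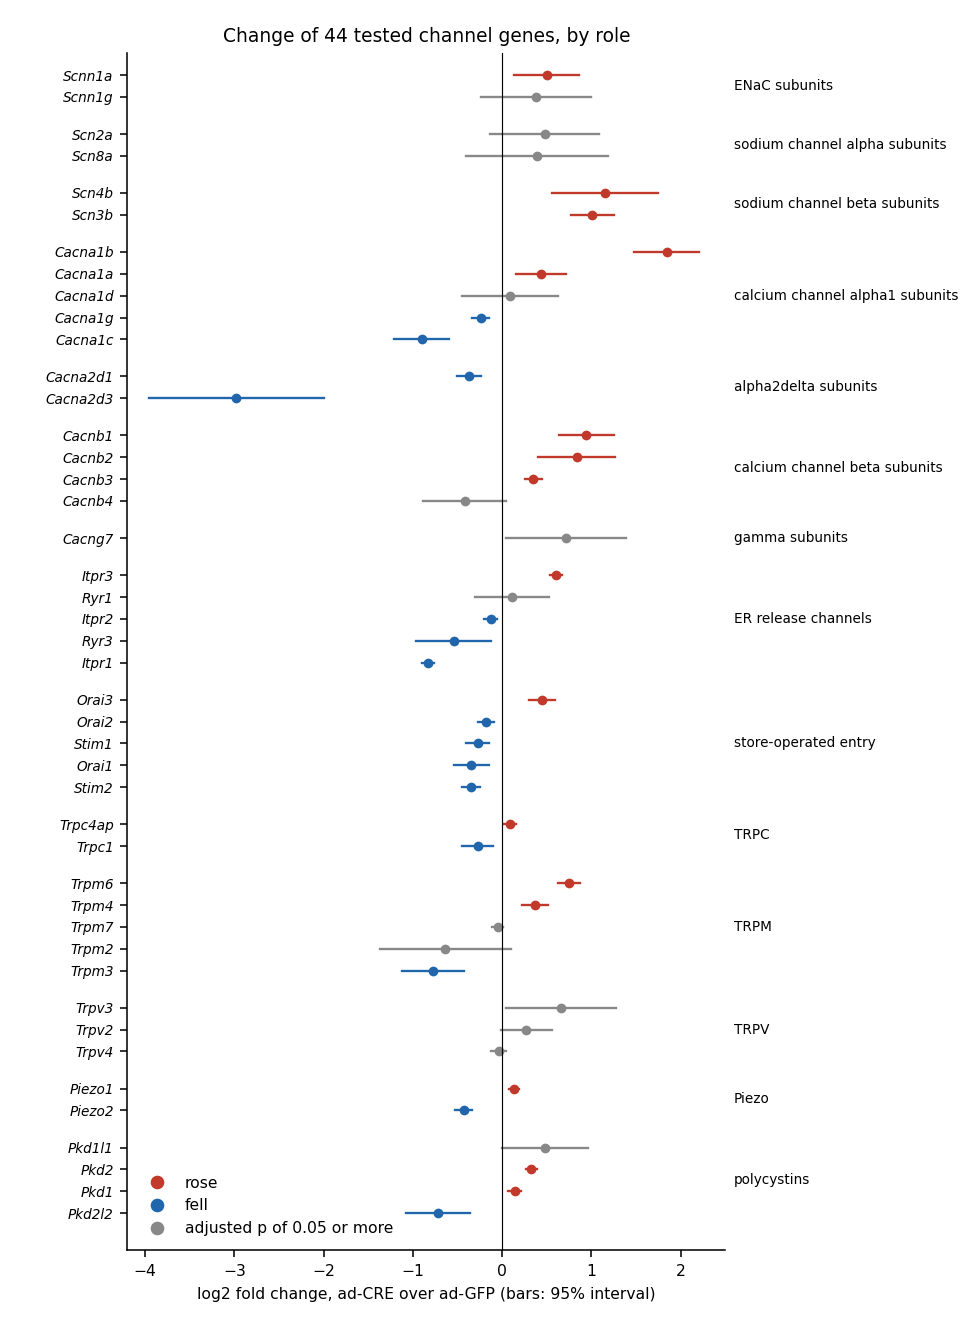
Log2 fold change of 44 tested channel genes, ad-CRE over ad-GFP, with its 95% interval, grouped by role (red, rose; blue, fell; grey, adjusted p of 0.05 or more). Calls run in both directions within several role groups, and estimates range from −2.98 for Cacna2d3 to 1.84 for Cacna1b.

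Changes of at least 1 log2 unit were seen in 5 of the 47 tested channel genes, 4 that rose (among them Cacna1b, Scn4b and Scn3b) and 1 that fell (Cacna2d3). Among all genes tested the share was 14.3%, with 4.84% that rose and 9.43% that fell. Scn4b passed the count filter through ad-CRE only and Cacna2d3 through ad-GFP only, in each case the group where the gene was higher. With 1 library left out, Scn3b ranged from 0.94 to 1.11 and Scn4b from 0.99 to 1.54, so both can drop under 1 log2 unit. The 4 named genes belong to voltage-gated channels, and none of them lay above 2.42 FPKM (the authors' level scaled by transcript length and library size) in the mean of either group. By length-scaled level the most abundant channel genes were Piezo1 at 55.6 ± 1.69 FPKM in ad-CRE and 52.0 ± 2.36 FPKM in ad-GFP, Trpc4ap at 37.2 ± 1.22 FPKM in ad-CRE and 35.6 ± 0.479 FPKM in ad-GFP, Cacnb3 at 31.5 ± 1.84 FPKM in ad-CRE and 25.1 ± 1.36 FPKM in ad-GFP and Itpr1 at 17.5 ± 1.06 FPKM in ad-CRE and 33.2 ± 2.19 FPKM in ad-GFP (SD, n = 4 each). They were followed by Pkd2 at 25.5 ± 0.175 FPKM in ad-CRE and 20.7 ± 0.459 FPKM in ad-GFP, Trpm7 at 21.3 ± 0.707 FPKM in ad-CRE and 22.6 ± 0.685 FPKM in ad-GFP, Itpr3 at 26.2 ± 0.771 FPKM in ad-CRE and 17.5 ± 0.779 FPKM in ad-GFP and Trpv4 at 17.2 ± 0.448 FPKM in ad-CRE and 18.0 ± 0.754 FPKM in ad-GFP. In the mean over all 8 libraries, 26 members reached 1 FPKM and 38 did not. Among these 26, all of them tested, 13 rose, 10 fell and 3 did not pass (88.5% called, beside 74.7% of all 11829 tested genes at that level). Of the 38 below it, 21 were tested and 11 were called (52.4%, beside 63.2% of 1873 genes).

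**Figure D2:**
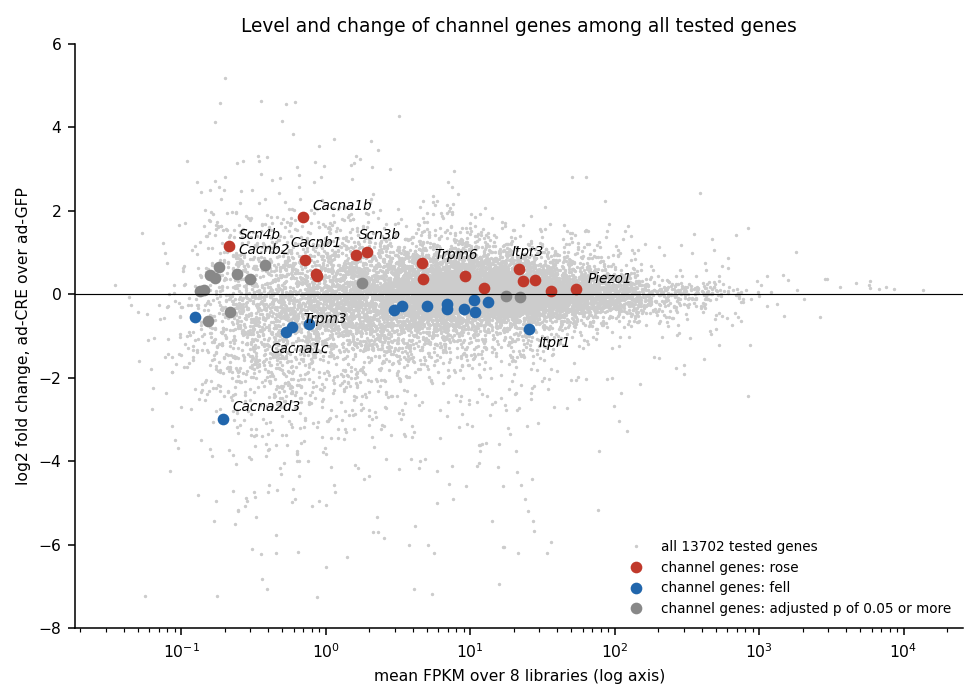
Mean FPKM over the 8 libraries (log axis) against the log2 fold change, ad-CRE over ad-GFP, for all 13702 tested genes (small grey points) and 44 tested channel genes (large points coloured by call). The channel genes lie within the cloud of all genes, and those with changes of at least 1 log2 unit have under 5 FPKM in the mean over the 8 libraries.

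The promoters of 4 of the changed genes are shown because these genes include, among the tested channel genes, the largest rise (Cacna1b) and the largest fall (Cacna2d3, tested through its ad-GFP reads only), a sodium channel beta subunit that rose (Scn4b) and the IP3 receptor that rose (Itpr3). Each runs from 250 bases before to 50 after the RefSeq start site (RefSeq, build GRCm38.p6), 5′ to 3′ on the strand of the gene, in lower case with matches to the GC box GGGCGG on either strand in capitals (Scn4b has none). Cacna1b lies at chr2:24763103-24763402 (minus strand), Cacna2d3 at chr14:29721815-29722114 (minus strand), Scn4b at chr9:45138374-45138673 (plus strand, 229 bases from the GENCODE gene start) and Itpr3 at chr17:27057054-27057353 (plus strand).
Cacna1b: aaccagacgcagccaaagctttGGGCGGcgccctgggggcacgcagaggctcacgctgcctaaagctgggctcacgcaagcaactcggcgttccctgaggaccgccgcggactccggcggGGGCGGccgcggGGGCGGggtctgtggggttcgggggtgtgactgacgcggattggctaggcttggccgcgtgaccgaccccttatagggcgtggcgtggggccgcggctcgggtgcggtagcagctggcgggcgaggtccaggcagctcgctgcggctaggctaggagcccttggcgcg
Cacna2d3: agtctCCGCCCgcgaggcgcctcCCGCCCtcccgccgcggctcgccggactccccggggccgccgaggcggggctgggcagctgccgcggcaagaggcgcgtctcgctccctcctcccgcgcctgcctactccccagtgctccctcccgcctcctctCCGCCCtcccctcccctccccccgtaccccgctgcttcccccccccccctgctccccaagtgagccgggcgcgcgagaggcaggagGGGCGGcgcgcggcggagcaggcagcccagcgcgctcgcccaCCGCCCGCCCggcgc
Scn4b: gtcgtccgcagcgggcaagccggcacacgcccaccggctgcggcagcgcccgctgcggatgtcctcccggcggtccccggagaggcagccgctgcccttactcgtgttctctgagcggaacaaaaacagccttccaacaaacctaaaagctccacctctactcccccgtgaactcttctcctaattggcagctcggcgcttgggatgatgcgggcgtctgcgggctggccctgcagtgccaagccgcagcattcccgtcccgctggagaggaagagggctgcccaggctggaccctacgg
Itpr3: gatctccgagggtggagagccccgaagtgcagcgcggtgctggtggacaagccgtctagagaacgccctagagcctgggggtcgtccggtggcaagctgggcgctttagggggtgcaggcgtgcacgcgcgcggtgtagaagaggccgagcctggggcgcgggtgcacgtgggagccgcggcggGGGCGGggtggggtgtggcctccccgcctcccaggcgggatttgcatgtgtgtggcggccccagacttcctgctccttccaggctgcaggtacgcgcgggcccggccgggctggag
The GC box matched 3 times in Cacna1b, 6 times in Cacna2d3 (the last 2 overlap), 0 times in Scn4b and 1 time in Itpr3, and a match is a description of letters, not a binding site. Of the 64 members, 48 were found in the RefSeq promoter table, and for 38 of them the start site used lay within 300 bases of the GENCODE gene start. The GC box was present in 26 of the 48 (54.2%) and in 35.7% of all 32851 promoters of that table. The sets are unlike: each member has 1 start site and a read minimum, while the table holds all listed start sites of all genes. The AP-1 motif TGANTCA was present in 1 (2.08%, Trpv3) and 7.81%, and the TATA box TATAAA in 4 (8.33%) and 13.6%, all searched on both strands. The median GC content was 62.8% over the 48 matched members, 66.5% over the 12 of them that rose, 71.8% over the 10 that fell and 52.7% over all promoters. The GC box shares therefore cannot be told apart from this difference in GC content.

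Among sodium channel genes with enough reads to be tested, those named here that passed were higher in ad-CRE. Of the 3 pore subunit members with too few reads for the test, 2 had clearly more reads in ad-GFP (ad-CRE against ad-GFP, Scn9a 12 against 54, Scn4a 4 against 24). Scn3a had 21 against 24 and did not pass with no filter beyond 1 read (−0.29, edgeR adjusted p = 0.659). With no filter beyond 1 read, Scn9a (−2.25) and Scn4a (−2.51) passed downwards, but Scn4a did not without ad-GFP replicate 1. Scn2a and Scn8a, pore subunits best known from neurons, did not pass, with log2 fold changes of 0.48 (95% interval −0.13 to 1.09, edgeR adjusted p = 0.151) and 0.39 (95% interval −0.40 to 1.19, edgeR adjusted p = 0.364).

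The sodium channel beta subunit genes Scn3b and Scn4b rose. Beta subunits are single-pass membrane proteins that steer sodium channels to the membrane and also act in cell adhesion. In replicates 1 to 4, the order used for all genes below, Scn3b had 9.41, 10.5, 8.51 and 9.96 CPM in ad-CRE, against 4.07, 4.13, 5.71 and 5.22 CPM in ad-GFP, without overlap (log2 fold change 1.01, SE 0.118, edgeR adjusted p = 6.39e-09). For Scn4b the values were 1.76, 1.09, 1.80 and 1.27 CPM in ad-CRE, against 1.09, 0.510, 0.404 and 0.621 CPM in ad-GFP, from 121 reads in the ad-CRE libraries and 50 in the ad-GFP libraries. This gene, which encodes a subunit linked to the pore by a disulfide bond, passed the count filter through ad-CRE only and was scarce (log2 fold change 1.15, SE 0.292, edgeR adjusted p = 0.000811).

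ENaC transcripts were scarce. Scnn1a, the alpha subunit needed for channel assembly, was the best expressed, with 4.03, 2.550, 3.05 and 2.99 CPM in ad-CRE, against 2.32, 2.602, 2.02 and 1.99 CPM in ad-GFP. The groups overlapped, and the highest library was ad-CRE replicate 1 (log2 fold change 0.50, SE 0.179, edgeR adjusted p = 0.0138). The call depended on that library: without it the log2 fold change was 0.35 (edgeR adjusted p = 0.096), while over its 15 alternatives the adjusted p ranged from 0.00639 to 0.096. Scnn1g, the gamma subunit, did not pass (0.38, 95% interval −0.24 to 0.99, edgeR adjusted p = 0.259), and Scnn1b, the beta subunit, had too few reads to be tested, 40 reads in the ad-CRE libraries and 22 in the ad-GFP libraries. Aqp2, the water channel that defines collecting duct principal cells, had 0 reads in all 8 libraries, and the sum of 10 collecting duct and distal tubule markers was 11.5 to 13.6 CPM in ad-CRE, against 13.9 to 16.1 CPM in ad-GFP. Of these 10 markers 4 were tested, of which 2 rose and 2 fell. Of 11 listed genes that act on ENaC or on the sodium gradient, 7 rose, 3 fell and 1 did not pass. Of all genes tested 36.8% rose and 36.3% fell. The smallest p-values were those of the serine proteases St14 (1.21, edgeR adjusted p = 7.7e-24) and Prss8 (1.57, edgeR adjusted p = 1.38e-18). The sodium pump gene Atp1b1 rose by less (0.14, edgeR adjusted p = 2.52e-05). On the log2(FPKM + 1) and log2(FPKM + 0.1) scales Atp1b1 had 0.051 and 0.052 and did not pass (limma adjusted p = 0.157 and 0.158), and over its 16 alternatives the adjusted p ranged from 8.22e-08 to 0.158. The epithelial marker sum was higher and the proximal tubule marker sum lower in the same ad-CRE libraries. Any link of these sums to the ENaC genes was not tested.

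**Figure D3:**
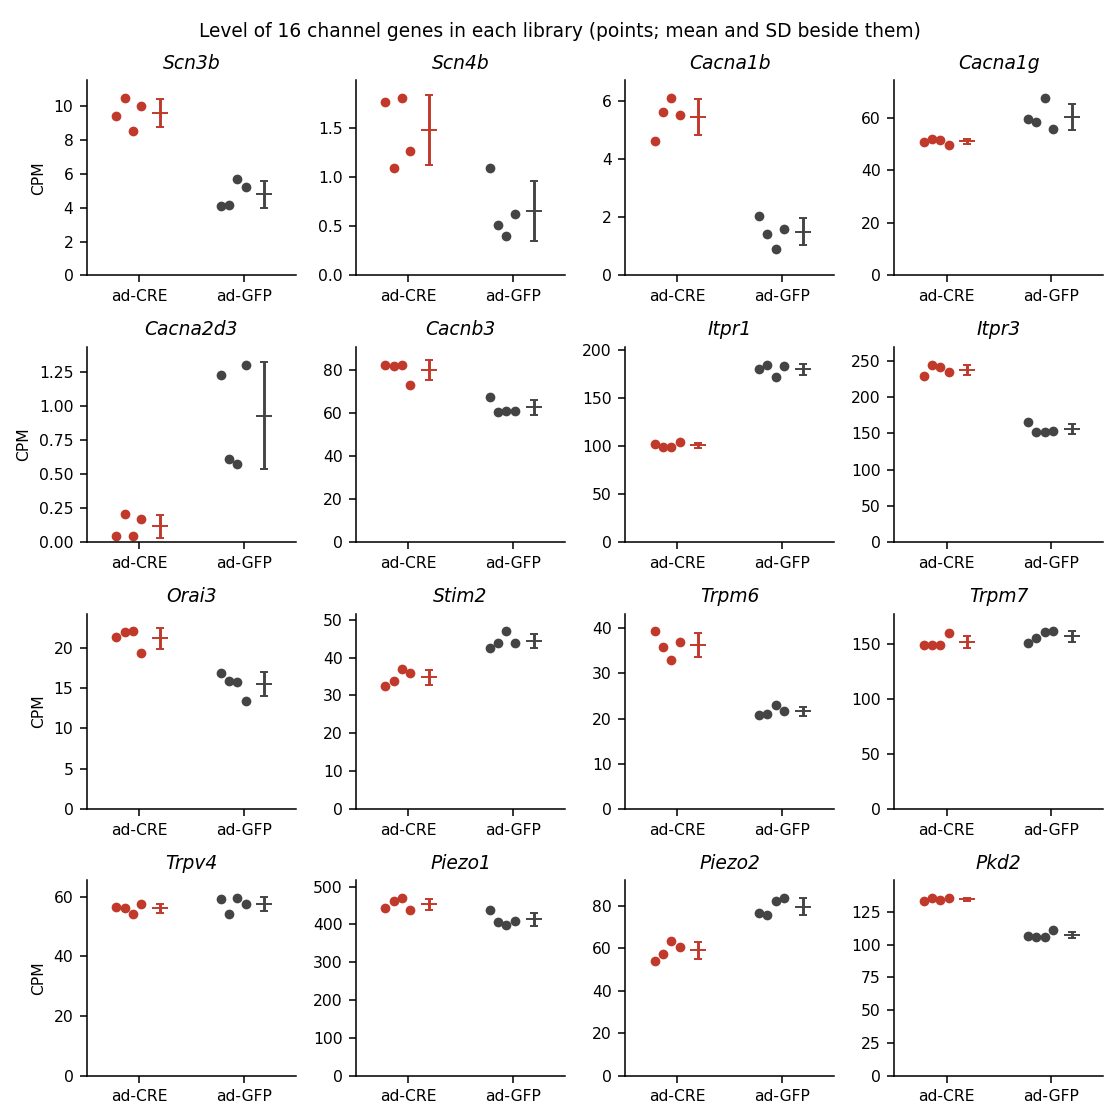
CPM of 16 channel genes in each of the 4 ad-CRE (red) and 4 ad-GFP (dark grey) libraries, with the mean and SD beside the points and every axis starting at 0. The groups are separate in all panels except those of Trpm7, Trpv4 and Piezo1, but in Scn4b the nearest libraries of the groups both round to 1.09 CPM.

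Among voltage-gated calcium channels, the pore subunits moved in both directions. Cacna1b, which encodes Cav2.2, the N-type channel of nerve terminals, showed the largest rise of any tested channel gene (ENSMUSG00000004113, GRCm38 chromosome 2, 24603887 to 24763152, minus strand). It had 4.61, 5.62, 6.11 and 5.53 CPM in ad-CRE, against 2.04, 1.43, 0.922 and 1.61 CPM in ad-GFP. Every ad-CRE library was above every ad-GFP library, from 438 reads in the ad-CRE libraries and 113 in the ad-GFP libraries (log2 fold change 1.84, SE 0.180, edgeR adjusted p = 1.66e-10, 3.59-fold higher). Of 6 neuronal markers, 4 were tested, of which 1 rose and 3 fell. Rbfox3 and Snap25 were near 0 in every library, while the sum of all 6 was 39.0 to 44.3 CPM in ad-CRE, against 54.2 to 56.6 CPM in ad-GFP. Cacna1a, which encodes the P/Q-type channel Cav2.1, rose by 0.44 (edgeR adjusted p = 0.0055), but not on the log2(FPKM + 1) scale (0.016, limma adjusted p = 0.926) or the log2(FPKM + 0.1) scale (0.048, limma adjusted p = 0.891). Over its 15 alternatives the adjusted p ranged from 0.00422 to 0.926. The length by which the authors divided its counts differed between libraries, from 2.24 to 7.93 kb.

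The most abundant pore subunit was Cacna1g, which encodes the T-type channel Cav3.1, a channel that opens at small depolarisations. It had 50.8, 52.0, 51.5 and 49.5 CPM in ad-CRE, against 59.5, 58.4, 67.5 and 55.7 CPM in ad-GFP. The ad-CRE values lay close together and below all ad-GFP values, of which replicate 3 was the highest (log2 fold change −0.24, SE 0.0482, edgeR adjusted p = 5.18e-05). Cacna1g held 72.0% ± 3.37 of the summed FPKM of the 8 pore subunits in ad-CRE and 76.7% ± 6.44 in ad-GFP (SD, n = 4). Cacna1c, which encodes the L-type channel Cav1.2 of heart and smooth muscle, fell to 0.536 of the ad-GFP level, with 2.36 to 3.33 CPM in ad-CRE, against 4.35 to 5.78 CPM in ad-GFP (log2 fold change −0.90, SE 0.151, edgeR adjusted p = 4.4e-06). The other L-type gene tested, Cacna1d, did not pass (0.089, 95% interval −0.45 to 0.63, edgeR adjusted p = 0.769), and its sign turned on both FPKM scales. Exons of Cacna1d overlap those of Chdh on the other strand, a gene with 388 reads in ad-CRE and 77 in ad-GFP.

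The subunits that accompany the pore also differed in direction. Of the 4 beta subunit genes, whose cytosolic products bring the pore to the membrane, 3 rose and none fell (beside 36.8% and 36.3% of all genes tested). Cacnb3, which made up 90.9% ± 1.57 of the summed beta subunit FPKM in ad-CRE and 92.8% ± 0.994 in ad-GFP (SD, n = 4), had 82.2, 81.8, 82.4 and 72.9 CPM in ad-CRE, against 67.6, 60.7, 61.1 and 60.9 CPM in ad-GFP. The groups did not overlap, although ad-CRE replicate 4 lay below its group and ad-GFP replicate 1 above its own (log2 fold change 0.35, SE 0.0444, edgeR adjusted p = 3.16e-08). Cacnb1 rose by 0.94 (SE 0.151, edgeR adjusted p = 1.98e-06) and Cacnb2 by 0.84 (SE 0.212, edgeR adjusted p = 0.00081), each without overlap. Cacnb4 did not pass (−0.42, 95% interval −0.89 to 0.046, edgeR adjusted p = 0.0979), but passed without ad-CRE replicate 3 (−0.58, edgeR adjusted p = 0.0426) and without ad-GFP replicate 4 (−0.59, edgeR adjusted p = 0.0183); over its 15 alternatives the adjusted p ranged from 0.0183 to 0.244.

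Both tested alpha2delta genes fell, beside 36.3% of all genes tested. Their extracellular products raise the surface level of calcium channels, and that of Cacna2d1 is the target of the drug gabapentin. Cacna2d1 had 14.7, 14.7, 14.0 and 14.7 CPM in ad-CRE, against 18.6, 17.8, 18.7 and 20.2 CPM in ad-GFP. The ad-CRE values were tightly grouped below the ad-GFP values (log2 fold change −0.37, SE 0.0665, edgeR adjusted p = 1.1e-05). Cacna2d3 was far scarcer, with 0.0452, 0.208, 0.0463 and 0.173 CPM in ad-CRE, against 1.23, 0.612, 0.577 and 1.30 CPM in ad-GFP (ENSMUSG00000021991, GRCm38 chromosome 14, 28904943 to 29721864, minus strand). These values rest on 9 reads in the ad-CRE libraries and 69 in the ad-GFP libraries, and within ad-GFP replicates 1 and 4 lay well above replicates 2 and 3 (log2 fold change −2.98, SE 0.480, edgeR adjusted p = 2.25e-06). It passed the count filter through ad-GFP only. The gamma subunit gene Cacng7, of the family that includes the AMPA receptor regulators, had 1.49, 0.624, 0.740 and 1.32 CPM in ad-CRE, against 0.710, 0.408, 0.922 and 0.497 CPM in ad-GFP, with overlapping groups. It did not pass (log2 fold change 0.72, SE 0.327, edgeR adjusted p = 0.0502), but passed without ad-CRE replicate 2, without ad-CRE replicate 3, without ad-GFP replicate 3 and with no count filter, and over its 15 alternatives the adjusted p ranged from 0.0189 to 0.242.

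Of 17 listed partners of calcium channels and ryanodine receptors, 14 were tested, and 4 rose, 5 fell and 5 did not pass. Of all genes tested 36.8% rose and 36.3% fell. Jph1, which encodes a junctophilin that ties the ER to the plasma membrane in muscle, had 5.07 ± 0.478 CPM in ad-CRE and 14.5 ± 0.952 CPM in ad-GFP (SD over 4 libraries, log2 fold change −1.52, edgeR adjusted p = 6.97e-15). Asph, whose products include the ER calcium-release partner junctin, also fell (−0.81, edgeR adjusted p = 6.31e-16). The most abundant gene of that list, Fkbp1a, which encodes the immunophilin FKBP12 of ryanodine receptors, did not pass (−0.024, edgeR adjusted p = 0.469).

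The IP3 receptor genes showed opposite changes that altered their order. Itpr1 had 102, 99.3, 98.97 and 104 CPM in ad-CRE, against 180.3, 185, 172 and 183 CPM in ad-GFP (ENSMUSG00000030102, GRCm38 chromosome 6, 108213096 to 108551109, plus strand). All ad-CRE values lay far below all ad-GFP values (log2 fold change −0.83, SE 0.0319, edgeR adjusted p = 2.21e-20, 0.561 of the ad-GFP level). Itpr3, the form prominent in epithelia, went the other way, with 229, 245, 242 and 235 CPM in ad-CRE, against 166, 152, 153 and 154 CPM in ad-GFP (ENSMUSG00000042644, GRCm38 chromosome 17, 27057304 to 27122223, plus strand). Its groups did not overlap either, and ad-GFP replicate 1 was the highest of its group (log2 fold change 0.61, SE 0.0317, edgeR adjusted p = 6.54e-17, 1.52-fold higher). Itpr2 fell slightly, at 84.5 to 90.4 CPM in ad-CRE, against 92.6 to 99.2 CPM in ad-GFP (log2 fold change −0.13, SE 0.0353, edgeR adjusted p = 0.00179). It was not called on log2(FPKM + 1) (limma adjusted p = 0.189) or log2(FPKM + 0.1) (limma adjusted p = 0.183), and over its 16 alternatives the adjusted p ranged from 0.000212 to 0.189.

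As shares of the summed FPKM of the 3 receptors, Itpr1 made up 32.5% ± 2.46 in ad-CRE and 53.6% ± 1.21 in ad-GFP, and Itpr3 made up 48.6% ± 0.741 in ad-CRE and 28.3% ± 1.88 in ad-GFP (SD, n = 4 each). Itpr2 held 18.9% ± 2.16 in ad-CRE and 18.1% ± 1.12 in ad-GFP. Itpr3 was thus the first of the 3 by level in ad-CRE and Itpr1 the first in ad-GFP, in every library, and the summed level was 53.9 ± 0.911 FPKM in ad-CRE and 62.0 ± 2.85 FPKM in ad-GFP. The epithelial marker sum was higher and the fibroblast marker sum lower in the same ad-CRE libraries. The proximal tubule sum and the collecting duct and distal tubule sum were also lower there. Each of these marker lists held tested genes that rose and tested genes that fell. Any link of these sums to the IP3 receptor changes was not tested. Exons of Itpr1 and Itpr3 overlap genes annotated on the other strand that have no row in the deposited table, and the sources used here do not give strand use in counting.

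**Figure D4:**
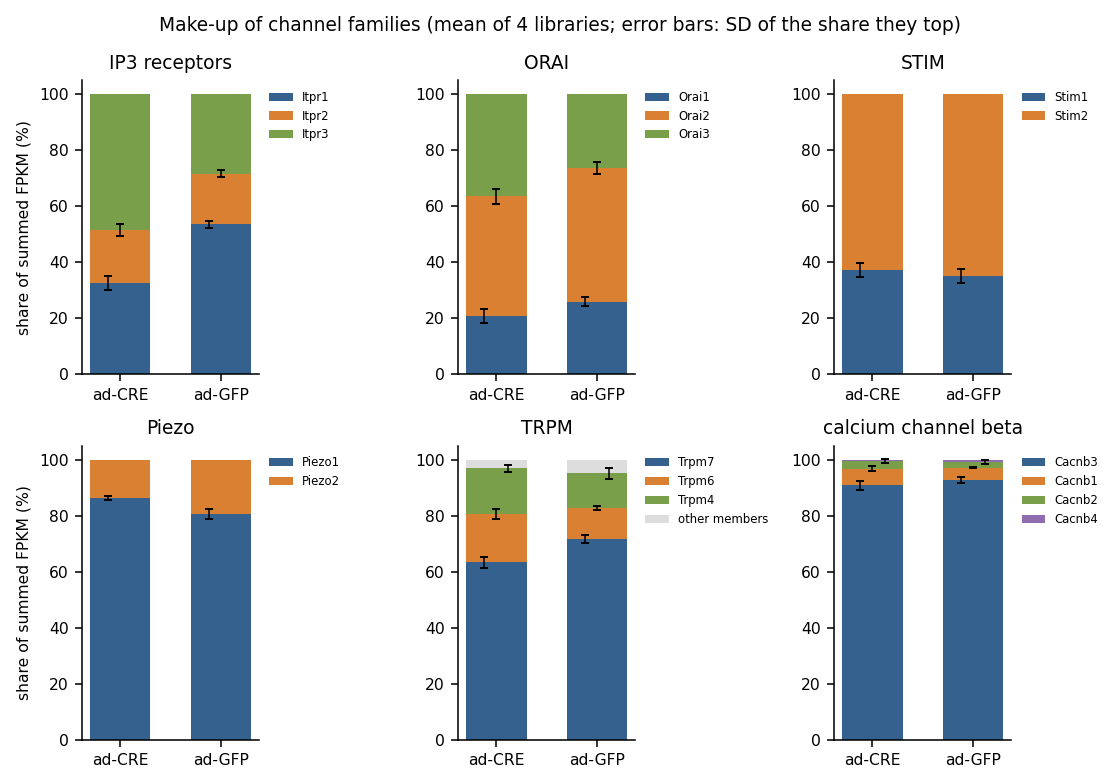
Share of each member in the summed FPKM of its family (mean of 4 libraries, error bars give the SD of the share whose upper edge they mark), ad-CRE left of ad-GFP in each panel. Itpr3 makes up 48.6% in ad-CRE and 28.3% in ad-GFP, while the make-up of the STIM and beta subunit families differs little.

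Ryanodine receptor transcripts, which encode the calcium release channels of muscle and neurons, were scarce. Of 6 muscle markers, Myog and Myl1 had 0 reads, 2 could be tested and both of these fell, and the sum was 13.8 to 19.2 CPM in ad-CRE, against 50.1 to 51.9 CPM in ad-GFP. Ryr1 did not pass, at 1.40 to 2.78 CPM in ad-CRE, against 1.90 to 2.27 CPM in ad-GFP (0.11, 95% interval −0.30 to 0.52, edgeR adjusted p = 0.625), with a sign that turned without ad-CRE replicate 3. Ryr3 fell by 0.54 on the log2 scale (1.27 to 2.08 CPM in ad-CRE, against 2.08 to 2.40 CPM in ad-GFP; SE 0.205, edgeR adjusted p = 0.0193). It no longer passed without ad-CRE replicate 2 (−0.47, edgeR adjusted p = 0.0596), without ad-CRE replicate 4 (−0.47, edgeR adjusted p = 0.0558) or on either FPKM scale, and over its 15 alternatives the adjusted p ranged from 0.00369 to 0.253. Its exons overlap those of Aven on the other strand, which had 948 reads in ad-CRE and 962 in ad-GFP. Of 12 phospholipase C genes, whose products make IP3, 5 rose, 5 fell and 2 did not pass. Of all genes tested 36.8% rose and 36.3% fell. Plce1 rose by 2.07 (edgeR adjusted p = 1.43e-17) and Plcd1 by 0.92 (edgeR adjusted p = 3.5e-13), while Plcb3 and Plcg1, the most abundant, had log2 fold changes of 0.12 and −0.14, both past the test. Plcg1 did not pass on the log2(FPKM + 1) or log2(FPKM + 0.1) scale (limma adjusted p = 0.0697 and 0.0675), and over its 16 alternatives the adjusted p ranged from 4.04e-05 to 0.0697.

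Genes of store-operated entry changed by small amounts, and 4 of 5 fell, beside 36.3% of all genes tested. Stim2, the more sensitive ER calcium sensor, had 32.6, 33.9, 36.9 and 36.0 CPM in ad-CRE, against 42.6, 44.0, 46.9 and 43.8 CPM in ad-GFP. All ad-CRE values were below all ad-GFP values (log2 fold change −0.35, SE 0.04997, edgeR adjusted p = 3.3e-07). Stim1 fell as well (16.2 to 17.4 CPM in ad-CRE, against 19.5 to 20.9 CPM in ad-GFP; log2 fold change −0.28, SE 0.0617, edgeR adjusted p = 0.000211), and Stim2 held 62.9% ± 2.45 of the summed STIM FPKM in ad-CRE and 64.8% ± 2.48 in ad-GFP (SD, n = 4). Among the pore genes, Orai2 was the most abundant, with 41.9, 46.7, 43.5 and 45.1 CPM in ad-CRE, against 50.8, 49.7, 49.8 and 50.1 CPM in ad-GFP. Its groups were separate but close (log2 fold change −0.18, SE 0.0447, edgeR adjusted p = 0.000708). Orai1 fell with overlapping groups, as ad-CRE replicate 1 lay within the ad-GFP range (8.52 to 11.2 CPM in ad-CRE, against 10.6 to 13.2 CPM in ad-GFP; log2 fold change −0.35, SE 0.0960, edgeR adjusted p = 0.00188). Orai3 was the one that rose (19.3 to 22.1 CPM in ad-CRE, against 13.5 to 16.9 CPM in ad-GFP; log2 fold change 0.45, SE 0.0699, edgeR adjusted p = 1.47e-06). Its share of the summed ORAI FPKM was 36.4% ± 1.63 in ad-CRE and 26.2% ± 1.45 in ad-GFP (SD, n = 4), while the sum was 28.8 ± 0.925 FPKM in ad-CRE and 29.9 ± 1.40 FPKM in ad-GFP.

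Among 10 listed regulators of store-operated entry and ER contact sites, 4 rose, 2 fell and 4 did not pass. Of all genes tested 36.8% rose and 36.3% fell, the background for each list count in this paragraph. Septin2, a filament protein, rose by 0.76 (edgeR adjusted p = 6.54e-16) and Esyt1, a tether between ER and plasma membrane, fell (−0.51, edgeR adjusted p = 3.09e-15). By contrast, Saraf, which switches store-operated entry off, did not pass (−0.064, edgeR adjusted p = 0.0903), nor did Ahcyl1, which encodes the IP3 receptor partner IRBIT (0.047, edgeR adjusted p = 0.125). Saraf passed in 5 of its alternatives (scaling by total counts, the filter of 5 CPM in 4 libraries, both FPKM scales and without ad-CRE replicate 3), and over its 16 alternatives the adjusted p ranged from 0.0169 to 0.249. Of 11 tested calcium pumps and exchangers, 3 rose, 6 fell and 2 did not pass. Both the rises and the falls include a gene that passed the count filter only through the group where it was higher. The ER pump gene Atp2a2 (SERCA2) had 388 ± 5.06 CPM in ad-CRE and 487 ± 3.83 CPM in ad-GFP (SD over 4 libraries, log2 fold change −0.33, SE 0.0235, edgeR adjusted p = 1.24e-13). At the plasma membrane the pump gene Atp2b1 fell (−0.49, edgeR adjusted p = 3.95e-14) and Atp2b4 rose (0.81, edgeR adjusted p = 1.59e-14), and the Golgi pump gene Atp2c1 rose by 0.14. Log2 fold changes over the 11 tested genes of this list ran from −2.25 to 2.82, with both extremes in scarcer genes. Of 10 genes of mitochondrial calcium uptake, 3 rose, 5 fell and 2 did not pass, among them Mcub, a dominant negative subunit of the uniporter (−0.78), and the porin Vdac3 (−0.40), whereas Vdac2, the most abundant, did not pass (−0.0034, edgeR adjusted p = 0.919). Of 17 tested genes of calmodulin, calcineurin and NFAT, which read calcium signals in the cytosol, 10 rose, 3 fell and 4 did not pass (beside 73.1% called of all genes tested). Rcan2, a calcineurin regulator, had 102 ± 5.16 CPM in ad-CRE and 44.1 ± 2.54 CPM in ad-GFP (SD over 4 libraries, log2 fold change 1.21, edgeR adjusted p = 6.95e-21), and the calmodulin gene Calm2 rose by 0.12.

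TRPM genes moved in both directions. Trpm6, which encodes a channel kinase that takes up magnesium in the distal tubule, had 39.3, 35.9, 33.0 and 37.0 CPM in ad-CRE, against 20.8, 20.97, 22.9 and 21.7 CPM in ad-GFP. All ad-CRE values lay above all ad-GFP values (log2 fold change 0.75, SE 0.0583, edgeR adjusted p = 9.59e-13, 1.68-fold higher). Trpm7, its widely expressed relative and the most abundant TRP channel gene by FPKM, had 149.6, 149.6, 149 and 160.2 CPM in ad-CRE, against 151, 156, 161 and 162 CPM in ad-GFP. The groups overlapped, with ad-CRE replicate 4 above the other 3 ad-CRE libraries, and the gene did not pass (−0.051, 95% interval −0.12 to 0.015, edgeR adjusted p = 0.154). It passed with scaling by total counts alone (−0.078, edgeR adjusted p = 0.028), with the filter of 5 CPM in 4 libraries (−0.075, edgeR adjusted p = 0.0312) and without ad-CRE replicate 4 (−0.074, edgeR adjusted p = 0.0388), and over its 16 alternatives the adjusted p ranged from 0.028 to 0.356. Trpm4, a sodium-permeable channel opened by calcium, rose by 0.37 (17.0 to 18.5 CPM in ad-CRE, against 12.4 to 14.5 CPM in ad-GFP; edgeR adjusted p = 2.86e-05). Trpm3, a heat- and steroid-activated channel, fell (1.72 to 1.96 CPM in ad-CRE, against 2.98 to 3.35 CPM in ad-GFP; log2 fold change −0.78, SE 0.169, edgeR adjusted p = 0.000154), and its FPKM fell by more than its counts (a log2 ratio of mean FPKM of −1.78). The oxidant-sensitive Trpm2 did not pass (−0.64, 95% interval −1.37 to 0.10, edgeR adjusted p = 0.111), but passed without ad-CRE replicate 3 (−0.98, edgeR adjusted p = 0.0286), and over its 15 alternatives the adjusted p ranged from 0.0286 to 0.869.

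None of the 3 tested TRPV genes passed, beside 73.1% of all genes tested. Trpv4, a channel opened by osmotic and mechanical stress that is abundant in tubule epithelium, had 56.6, 56.4, 54.1 and 57.5 CPM in ad-CRE, against 59.2, 54.2, 59.6 and 57.7 CPM in ad-GFP. The groups overlapped and the difference was small (−0.039, 95% interval −0.13 to 0.047, edgeR adjusted p = 0.408). Trpv3, a warmth sensor of keratinocytes, had 0.814, 1.82, 0.925 and 1.67 CPM in ad-CRE, against 0.568, 0.765, 1.21 and 0.745 CPM in ad-GFP, with wide overlap. Its estimate was 0.65 (95% interval 0.038 to 1.27, edgeR adjusted p = 0.052), and it passed with no count filter and without ad-CRE replicate 1, ad-CRE replicate 3 or ad-GFP replicate 3, while over its 15 alternatives the adjusted p ranged from 0.0169 to 0.222. Trpv2 did not pass either (0.27, 95% interval −0.018 to 0.56, edgeR adjusted p = 0.0848), but passed without ad-CRE replicate 4 (0.35, edgeR adjusted p = 0.037) and without ad-GFP replicate 2 (0.42, edgeR adjusted p = 0.0131), and over its 16 alternatives the adjusted p ranged from 0.0131 to 0.305.

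The TRPC channel gene Trpc1 fell. This broadly expressed subunit had 13.3, 10.4, 12.1 and 10.4 CPM in ad-CRE, against 13.5, 13.5, 14.6 and 14.5 CPM in ad-GFP. The groups were separate by a small margin (log2 fold change −0.27, SE 0.0843, edgeR adjusted p = 0.00474). Trpc4ap matched by its name but encodes an adaptor of ubiquitin ligases and TRPC channels, not a channel. It had 125, 118, 116 and 122 CPM in ad-CRE, against 113, 114, 111 and 114 CPM in ad-GFP. The groups were barely separate (log2 fold change 0.09, SE 0.0324, edgeR adjusted p = 0.0143), and the call was lost without ad-CRE replicate 1, with the filter of 5 CPM in 4 libraries, with scaling by total counts and on both FPKM scales (over its 16 alternatives the adjusted p ranged from 0.00494 to 0.106). Outside the name pattern, 4 of 7 listed genes of other TRP and sodium leak channels were tested. Among these 4 genes 3 rose, 0 fell and 1 did not pass (of all genes tested 36.8% rose and 36.3% fell). Mcoln3 rose by 0.80 (edgeR adjusted p = 1.06e-10) and Mcoln1 by 0.31 (edgeR adjusted p = 1.86e-07), both endolysosomal TRP channels. Nalcn, the sodium leak channel, rose at a very low level (1.41 ± 0.153 CPM in ad-CRE and 0.158 ± 0.151 CPM in ad-GFP, SD over 4 libraries, log2 fold change 3.20, edgeR adjusted p = 2.19e-08). It passed the count filter through ad-CRE only, with 31, 24, 35 and 24 reads in ad-CRE, against 1, 3, 1 and 6 in ad-GFP. The estimate depends on ad-GFP replicate 4, without which it was 3.95 (edgeR adjusted p = 1.44e-08), and leaving out 1 library gave 2.86 to 3.95.

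The Piezo genes, which encode pores opened by membrane stretch, moved apart. Piezo1, the most abundant channel gene of all, had 444, 462, 469.7 and 437 CPM in ad-CRE, against 439, 406, 399.6 and 409 CPM in ad-GFP. The groups overlapped by the highest ad-GFP library, and the rise was small (log2 fold change 0.13, SE 0.0290, edgeR adjusted p = 0.000171). Piezo2, best known from touch neurons, had 54.1, 57.4, 63.5 and 60.3 CPM in ad-CRE, against 76.6, 75.6, 82.0 and 83.5 CPM in ad-GFP. All ad-CRE values lay below all ad-GFP values (log2 fold change −0.43, SE 0.0458, edgeR adjusted p = 9.99e-10). Piezo2 made up 13.8% ± 0.620 of the summed Piezo FPKM in ad-CRE and 19.6% ± 1.80 in ad-GFP (SD, n = 4). Exons of Piezo1 overlap those of Ctu2 on the other strand, but Ctu2 had 1059 reads in ad-CRE and 874 in ad-GFP, while Piezo1 had 36420 reads in the ad-CRE libraries and 30748 in the ad-GFP libraries.

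Both genes of dominant polycystic kidney disease rose slightly. Pkd2, the channel subunit of cilia and ER, had 133, 135, 134 and 135 CPM in ad-CRE, against 106, 106, 106 and 111 CPM in ad-GFP. The ad-CRE values lay within a narrow range above all ad-GFP values (log2 fold change 0.33, SE 0.0310, edgeR adjusted p = 8.36e-11, 1.25-fold higher). Pkd1, its receptor-like partner, rose by 0.14 (94.2 to 101 CPM in ad-CRE, against 85.8 to 94.1 CPM in ad-GFP; edgeR adjusted p = 0.000832). On the log2(FPKM + 1) and log2(FPKM + 0.1) scales Pkd1 had 0.24 and 0.25 and did not pass (limma adjusted p = 0.524 and 0.518), and over its 16 alternatives the adjusted p ranged from 7.56e-05 to 0.524. Its exons overlap those of Tsc2 on the other strand, which fell slightly (log2 fold change −0.13, edgeR adjusted p = 0.00237). Pkd2l2, a relative expressed in testis, fell (1.85 to 2.35 CPM in ad-CRE, against 2.65 to 3.98 CPM in ad-GFP; log2 fold change −0.72, SE 0.175, edgeR adjusted p = 0.000546), but its exons overlap those of Fam13b on the other strand, a gene with 8733 reads in ad-CRE and 9937 in ad-GFP that also fell (−0.30, edgeR adjusted p = 5.3e-10). Pkd1l1, a partner of Pkd2 in left-right patterning, did not pass (0.48, 95% interval −0.0052 to 0.96, edgeR adjusted p = 0.0697), but passed without ad-CRE replicate 2 (0.62, edgeR adjusted p = 0.0234) and without ad-GFP replicate 4 (0.59, edgeR adjusted p = 0.0421), and over its 15 alternatives the adjusted p ranged from 0.0234 to 0.255.

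The 17 members with too few reads for the test had 23 to 74 reads over the 8 libraries, and their read sums are given for ad-CRE against ad-GFP. Several had more reads in ad-GFP: Ryr2, the ryanodine receptor of heart, had 4 against 46 reads, the pain channel gene Scn9a 12 against 54, the gamma subunit gene Cacng4 8 against 49, the muscle sodium channel gene Scn4a 4 against 24, the T-type gene Cacna1i 13 against 42 and Cacna2d2 7 against 23. Ryr2 read counts were 1, 2, 1 and 0 in ad-CRE replicates 1 to 4, against 18, 6, 9 and 13 in ad-GFP replicates 1 to 4. The opposite was seen in the T-type gene Cacna1h, with 55 against 19 reads, and in Cacna2d4, with 29 against 11. With no filter beyond 1 read, 7 of the 17 passed, beside 58.8% of all 18309 genes in that fit: Cacna1h upwards (log2 fold change 1.41, edgeR adjusted p = 0.0046) and Ryr2 (−3.46, edgeR adjusted p = 8.29e-07), Scn9a (−2.25), Cacng4 (−2.64), Scn4a (−2.51), Cacna1i (−1.74) and Cacna2d2 (−1.74) downwards. Refitted without each library in turn, an alternative chosen after seeing the data, Ryr2, Scn9a, Cacng4, Cacna1i and Cacna1h passed in all 8 fits. The rise of Cacna1h was seen in counts but not in FPKM. Its mean level was 0.0825 ± 0.0330 FPKM in ad-CRE and 0.0775 ± 0.0591 FPKM in ad-GFP (SD over 4 libraries). Scn4a did not pass without ad-GFP replicate 1, which holds 14 of its 24 ad-GFP reads (log2 fold change −1.77, edgeR adjusted p = 0.119), and Cacna2d2 passed in 3 of the 8, with log2 fold changes from −2.44 to −1.41 and edgeR adjusted p from 0.0121 to 0.0917. The other 10 are Scnn1b and Cacna2d4, described above, the R-type gene Cacna1e (17 against 22), the neuronal Scn3a (21 against 24), the podocyte channel gene Trpc6 (14 against 28), Trpm1 (14 against 9), the taste channel gene Trpm5 (27 against 20), the cold receptor gene Trpm8 (10 against 14), the capsaicin receptor gene Trpv1 (22 against 35) and the epithelial calcium channel gene Trpv6 (16 against 30). Exons of Trpm5 overlap those of Tssc4 on the other strand, which had 1696 reads in ad-CRE and 1855 in ad-GFP.

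The read minimum left out 22 matching genes. Just inside it lay Trpm1 with 23 reads in all, Trpm8 with 24 and Scn4a with 28, and just outside it Trpc2 with 18, Cacng8 with 13 and Trpc5os with 11. Among those left out were Cacna1s, the voltage sensor of skeletal muscle, with 10 reads, the neuronal sodium channel genes Scn1a, Scn11a and Scn10a with 9, 8 and 1, and the distal tubule calcium channel gene Trpv5 with 4. Cacng1, Cacng3, Cacng6 and Trpc7 had 0 of 154599307 reads, which allows up to 3 reads at this depth, by counting error only.

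Channel genes that neighbour each other in the genome differed in how many reads they had. On GRCm38 chromosome 9 Scn4b (45138395 to 45154152, 171 reads over the 8 libraries) lies beside Scn2b (45117782 to 45130070, 7 reads). In the sodium channel cluster of chromosome 2, between 65457118 and 66784914, no gene was well expressed: Scn2a had 156 reads in all, Scn3a 45, Scn9a 66, Scn1a 9 and Scn7a 1. On chromosome 7 Cacng7 had 131 reads, Cacng8 13 and Cacng6 0. Reads over these genes differ in gene length as well, so the sums are read here only as how much data each gene has.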

How the data were processed

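There were 8 libraries, 4 ad-CRE and 4 ad-GFP. Per the labels' protocols, RNA came from an RNeasy kit and SMARTer library preparation followed. GRCm38 and mm10 are the builds in the submitters' processing notes. The sources used here do not name the aligner, counter, annotation or strand use. The deposited table of 22274 genes holds, per the file headers, a read count and an FPKM value per library. The authors' log2 fold change, p-value and FDR, deposited beside them, were not used. FPKM served for levels and shares between genes; counts divided by FPKM show that the length the authors used differed between libraries for some genes, so FPKM of low genes is less certain than their counts.

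The test on counts was edgeR 4.0.16 under R 4.3.3 (filterByExpr with the groups, TMM factors, glmQLFit and glmQLFTest, group as the only term), adjusted by Benjamini-Hochberg over 13702 genes at a threshold of 0.05. The SE is the log2 fold change divided by the square root of F, and 95% intervals use the test's degrees of freedom. The test was tried on simulated counts with a common spread for all genes and few changed genes. In these data most tested genes were called, so that simulation does not give error rates for them. Alternatives were DESeq2 size factors, total counts only, no filter beyond 1 read, at least 5 CPM in 4 libraries, DESeq2 1.42.0, limma 3.58.1 on log2(FPKM + 1) and log2(FPKM + 0.1), whose pseudocounts understate changes of low genes, the replicate number as a term, and omission of each library. Members and lists were chosen with earlier results of these data known. Full values go to members changed by at least 1 log2 unit and, in each role group, to the most abundant and the most significant; from each list of other genes at most 4 are named, 2 by p-value and 2 by abundance. Coordinates come from GENCODE M21 (GRCm38), which held all 64 members. Exons of 21 members overlap a gene on the other strand, so reads of both may be counted together. Replicates were not copies of each other (chi-square over degrees of freedom 1.69 to 3.26). A few genes are not reported here by name or plotted, but are included in the counts. Figures were drawn with matplotlib 3.10.9.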

Additional observations from a re-analysis of the deposited data

Results flagged for a closer look

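In 94 groups of 4 libraries (47 tested channel genes in each of both groups), 6 held a library far from the other 3 by the gap between them, where chance gives about 1 in 20 groups. The number found is near that rate, so the libraries below are listed as a description only. Cacnb3 had such a library in both groups: ad-CRE replicate 4 had 72.9 CPM while the other 3 ad-CRE libraries had 81.85 to 82.41 CPM, and ad-GFP replicate 1 had 67.6 CPM while the other 3 ad-GFP libraries had 60.67 to 61.11 CPM. Trpm7 had 160.2 CPM in ad-CRE replicate 4 and 149.32 to 149.62 CPM in the other 3 ad-CRE libraries. Cacna2d1 had 14.0 CPM in ad-CRE replicate 3 and 14.67 to 14.75 CPM in the other 3. Itpr3 had 166 CPM in ad-GFP replicate 1 and 151.71 to 153.98 CPM in the other 3 ad-GFP libraries, and Pkd2 had 111 CPM in ad-GFP replicate 4 and 105.63 to 106.46 CPM in the other 3.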

How the results depend on the processing

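With at least 5 CPM in 4 libraries 25 members were tested, of which 22 were called (88.0%, beside 76.2% of all genes so filtered), 11 higher and 11 lower; fewer genes were tested there by construction. With no filter beyond 1 read all 64 were tested and 43 were called (67.2%, beside 58.8%). On both the log2(FPKM + 1) and log2(FPKM + 0.1) scales 29 of the 47 were called, beside 9268 and 9287 of all genes, with DESeq2 33 and 9606, and 34 both with the size factors of DESeq2 in edgeR and with total counts. The term for the replicate number (replicate block) gave 34 called members, 18 higher and 16 lower, and 9963 of all genes. Libraries with the same number did not deviate together (correlations of −0.00071, −0.035, −0.065 and 0.082 for numbers 1 to 4), and no ad-CRE library correlated best with its own number. Leaving out 1 library gave 35 to 41 called members, 17 to 20 higher and 17 to 21 lower, but the count filter then needs fewer libraries and let 48 to 51 members be tested; of the 47, 33 to 37 were called. None of the 34 called members changed sign under any alternative that gave it a value. Signs turned for genes that did not pass: Cacna1d had −0.051 on log2(FPKM + 1) and −0.22 on log2(FPKM + 0.1), Scn2a had −0.016 on log2(FPKM + 1), and Vdac2 had 0.012 with no filter beyond 1 read. When 1 library was left out, Ryr1 ranged from −0.0049 to 0.28 and Vdac2 from −0.026 to 0.012, and the cause was not tested. Genes with under 100 reads are limited by depth.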

Other observations

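The deposited counts and FPKM of a gene together give the length by which the authors divided, and for some channel genes this length was not the same in all libraries. For Trpm3 it was 6.09, 9.501, 5.20 and 9.21 kb in ad-CRE, against 4.78, 3.01, 4.29 and 2.96 kb in ad-GFP (replicates 1 to 4), without overlap. The ratio, ad-CRE over ad-GFP and relative to the median gene, was 1.97, at percentile 99.97 of the size of this shift over 13218 genes, of which 0.393% shifted by at least 0.5 log2 units. Cacna1b varied between libraries of the same group, with 8.97, 8.57, 4.23 and 4.05 kb in ad-CRE and 6.05, 2.33, 9.31 and 3.01 kb in ad-GFP, and had a log2 ratio of mean FPKM of 1.30 against 1.84 in counts. Cacna1a had 4.02 to 7.93 kb in ad-CRE and 2.24 to 7.89 kb in ad-GFP (ratio 1.28, percentile 98.9). Cacna1d had 7.97 to 8.56 kb in ad-CRE and 3.35 to 8.69 kb in ad-GFP (ratio 1.31, percentile 99.2). Piezo1 stayed between 8.004 and 8.12 kb in all 8 libraries. These patterns were noticed in the data and no cause was tested.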
